A study of Mus musculus with 3 samples.

Results

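The S-phase cells of culture days 4 and 7 were 162 of the 5151 kept cells of these days, and 6124 cells were kept over the whole time course. There were 74 of them among 2980 cells on day 4 and 88 among 2171 cells on day 7. A cell was chosen when the summed unique molecular identifiers (UMIs, each standing for 1 captured mRNA molecule) of 9 DNA replication genes, Rrm2, Ccne2, Hells, Clspn, Mcm3, Mcm5, Mcm6, Lig1 and Gmnn, reached 4 and also 8 per 10000 UMIs of the cell, while the sum of 8 mitosis genes, Cenpf, Ube2c, Cdc20, Ccnb1, Cenpa, Cenpe, Hmmr and Plk1, was at most 2. Cells of the same day with no UMI of any of these 17 genes served as reference cells (1687 and 1140). Mitotic cells were chosen by the mirrored rule, with a mitosis sum of at least 4 and 8 per 10000 and a replication sum of at most 2 (232 and 126). Cells that reached both minimums in both lists (70 and 82) were not members.

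The cells came from testes of adult C57BL/6 mice of 8 to 12 weeks, sorted as Sca1+/cKit- and plated on Matrigel at 100000 cells per well. All wells had 18 h of recovery and 3 days of expansion with PdgfAA (10 ng/ml), PdgfBB (10 ng/ml), the Smoothened agonist SAG (0.5 µM) and Fgf2 (10 ng/ml), and day 4 was the end of this expansion. Differentiation medium held the same 4 factors plus LiCl2 (5 mM) and DAPT (10 µM), an inhibitor of Notch cleavage. It had been on the cells for 3 days at day 7 and for 10 days at day 14. Each day was 1 Drop-seq library, so that a day and its library cannot be told apart, no difference between days or cell groups was tested against replicates, and each interval below is an exact 95% interval that covers counting error only. The sort took a mixture of interstitial cells, and the files name no culture well or animal for a cell.

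In the G1 phase of the cell cycle the MCM helicase is loaded onto origins of replication by the origin recognition complex, Cdc6 and Cdt1. At the start of S phase, E2F transcription factors turn on the genes for the helicase, the polymerases, the sliding clamp and the enzymes that make deoxynucleotides, and DNA is copied and packed into new nucleosomes. Mitosis genes come on later, through a promoter element called CHR (cell cycle genes homology region), while inhibitors of cyclin-dependent kinases such as p21 and p15 hold cells back in G1.

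Promoter sequence of the chosen genes is shown for the words that E2F and the CHR-binding complex are known for. Windows of 300 bases, from 250 before to 50 after each transcript start (RefSeq, GRCm38.p6), were searched on both strands for the E2F words TTTGGCGC, TTTCCCGC, TTTCGCGC and TTTGCCGC and for the CHR words TTTGAA and TTCGAA. Of 27025 genes with a window, 704 (2.61%) held an E2F word and 5854 (21.7%) a CHR word. Among the 9 replication genes of the rule, 7 had a window, and 6 of these (Clspn, Hells, Lig1, Mcm3, Mcm5 and Mcm6) held an E2F word and 0 a CHR word. Among the 8 mitosis genes of the rule, 0 held an E2F word and 6 a CHR word. Below are 60 to 91 bases around the words, 5′ to 3′ on the gene's strand, with the words in capitals. They show members of the rule (Hells, Mcm5, Mcm6), genes outside it that are described further on (Cdc6, Pola1, Uhrf1, Casp8ap2) and, for contrast, mitosis genes with a CHR word (Ube2c, Cdc20, Mki67).
Hells (chr19:38930913-38930972, plus strand): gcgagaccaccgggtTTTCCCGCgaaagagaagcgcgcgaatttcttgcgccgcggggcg
Mcm5 (chr8:75109341-75109400, plus strand): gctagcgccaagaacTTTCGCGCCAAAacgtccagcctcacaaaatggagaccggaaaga
Mcm6 (chr1:128359740-128359830, minus strand): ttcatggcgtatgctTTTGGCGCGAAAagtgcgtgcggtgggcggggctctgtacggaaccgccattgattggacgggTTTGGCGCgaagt
Cdc6 (chr11:98907998-98908057, plus strand): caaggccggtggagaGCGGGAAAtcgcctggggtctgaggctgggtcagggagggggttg
Pola1 (chrX:93632249-93632308, minus strand): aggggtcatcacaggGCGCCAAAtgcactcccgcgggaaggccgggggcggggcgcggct
Uhrf1 (chr17:56304113-56304172, plus strand): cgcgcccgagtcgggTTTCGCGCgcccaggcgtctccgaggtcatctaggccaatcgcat
Casp8ap2 (chr4:32615279-32615338, plus strand): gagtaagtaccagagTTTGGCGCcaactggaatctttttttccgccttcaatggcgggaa
Ube2c (chr2:164769869-164769928, plus strand): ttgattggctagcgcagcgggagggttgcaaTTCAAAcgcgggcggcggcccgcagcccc
Cdc20 (chr4:118437344-118437403, minus strand): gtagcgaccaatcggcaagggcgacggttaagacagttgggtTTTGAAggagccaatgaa
Mki67 (chr7:135716451-135716510, minus strand): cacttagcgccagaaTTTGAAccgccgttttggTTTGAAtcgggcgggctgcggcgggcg
Each strand counts once in a window, so that Mcm5 and the upstream word of Mcm6 show matches on opposite strands that overlap. A match of this kind is a description of letters, not of a bound site.

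Over genes outside the rule that had a window, an E2F word was found for 18 of 70 genes (25.7%) of the replication machinery list, 8 of 20 for origin licensing and helicase and 5 of 10 for polymerases and primase. It was found for 0 of 19 deoxynucleotide supply genes, a list too short to read a low share from. CHR words were found for 35 of 48 (72.9%) of the mitosis genes outside the rule. Among 5892 genes measured on both days and with a window, 296 (5.02%) held an E2F word, and among the 194 of them that were at least 2-fold higher in S-phase than in reference cells on both days, 36 (18.6%) did. A CHR word stood in 927 (15.7%) and 74 (38.1%) of the same genes, and was thus the more common word in both sets. The higher genes were called between cells chosen by replication and mitosis genes, so these shares are descriptions and nothing is read from them.

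The libraries of days 4, 7 and 14 came to 12677110, 11627440 and 5324400 UMIs over their kept cells. Many kept barcodes of 1 day shared their first 11 of 12 bases with another kept barcode of that day, 1304 of 2980 on day 4 and 1026 of 2171 on day 7, against 4 and 0 that shared their last 11. Of the S-phase cells, 31 of 74 and 42 of 88 did so, and their 74 and 88 barcodes had 61 and 68 distinct first parts. Cells that shared had a median of 1665 and 1951 UMIs, those that did not 5039 and 6464. Adding up such barcodes left 54 and 62 S-phase cells, and leaving them out left 43 and 46. Under either treatment 9 of 177 ratios of named genes and 3 of 48 summed ratios of lists moved by more than 1.5 times, and their values are given with the results. No kept barcode was found on more than 1 of the 3 days.

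On day 4 the S-phase cells were 2.48% of kept cells (exact binomial interval 1.95 to 3.11) and on day 7 they were 4.05% (3.26 to 4.97). On day 14, 8 of 973 cells (0.822%, 0.356 to 1.61) met the same rule. Of these 8 barcodes, 6 shared their first 11 bases with another kept barcode, and the 8 had 4 distinct first parts. The interval takes them as 8 separate cells. A fixed number of UMIs favours deep cells, and S-phase cells had a median of 3599 and 3612 UMIs against 2224 and 2336.5 in reference cells. After every cell was thinned to 3000 UMIs and 1527, 1022 and 449 shallower cells were left out, 47 of 1453 (3.23%, 2.39 to 4.28), 72 of 1149 (6.27%, 4.93 to 7.83) and 5 of 524 (0.954%) met it. Day 7 stood above day 4 and day 14 below both, with and without thinning. At 1500 UMIs per cell S-phase cells held a median of 964 and 982 genes against 942 and 951 in reference cells, and a median of 1.18% and 1.31% of their UMIs was mitochondrial against 1.19% and 1.46%. With barcodes added up the shares were 2.66% and 4.38%, and without them 2.57% and 4.02%.

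**Figure D1:**
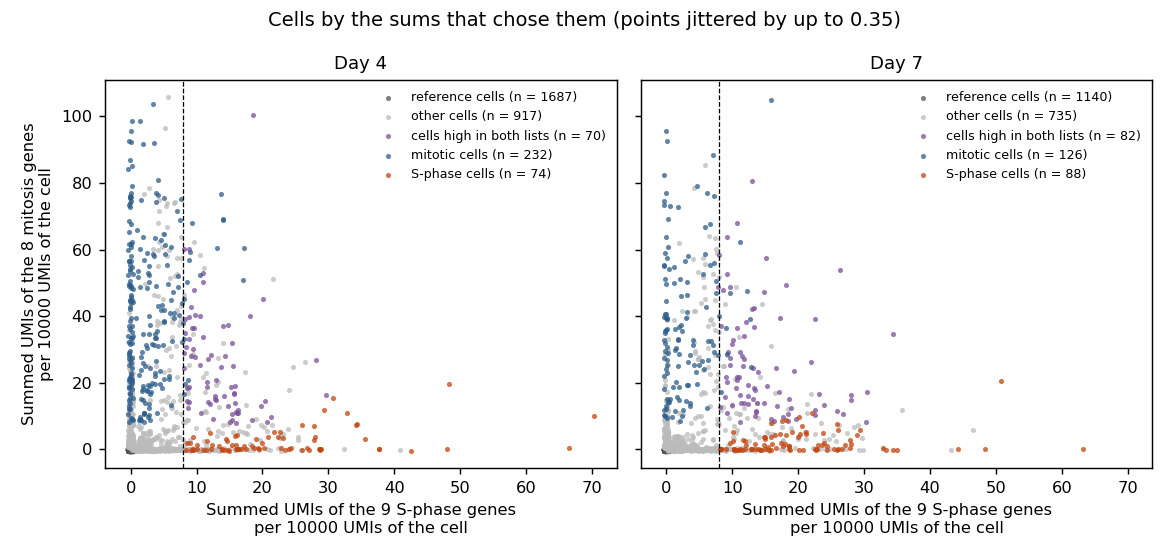
Each point is 1 kept cell of day 4 (left) or day 7 (right), with the replication sum per 10000 UMIs on the x axis and the mitosis sum per 10000 UMIs on the y axis, coloured by group and jittered by up to 0.35. The dashed line is the minimum of 8 per 10000, and the S-phase cells (74 and 88) lie to its right near the x axis with no gap between them and the grey cells.

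The values that chose the cells are given as a description. The replication sum was 4 to 25 UMIs on day 4 and 4 to 28 on day 7, with a median of 6 on both days, and reached 69.9 and 63.3 per 10000. A member had UMIs of a median of 4 (day 4) and 5 (day 7) of the 9 genes, so that few cells showed the whole list. Lig1, the DNA ligase that joins Okazaki fragments, gave 127 and 114 UMIs, Hells, a chromatin remodeller, 89 and 115, and Mcm3, a helicase subunit, 63 and 101. Rrm2, the regulated subunit of ribonucleotide reductase, gave 43 and 85 UMIs, Ccne2, a cyclin of the G1 to S step, 50 and 53, Clspn, the adaptor of the replication checkpoint, 53 and 63, and Gmnn, the inhibitor of Cdt1, 70 and 81. The threshold had no natural edge. There were 21 and 28 members with exactly 4 replication UMIs, and 14 and 22 other cells met every other term with 3. Between 8 and 10 per 10000 lay 9 and 6 members, and between 6 and 8 lay 9 and 8 cells that met the other terms. With no mitosis UMI there were 39 and 42 members, with 1 UMI 15 and 28, and with 2 UMIs 20 and 18, while 19 and 21 cells with 3 or 4 and 77 and 94 cells with 5 or more met the replication terms.

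The label was checked by choosing cells with 8 of the 9 genes and reading the one left out. The gene left out was higher in the cells so chosen than in cells with no UMI of the remaining genes for every one of the 9 on both days, from 8.36-fold (Mcm6) to 78.8-fold (Clspn) on day 4 and from 10.2-fold (Mcm6) to 102-fold (Clspn) on day 7. Ccne2 came to 56.4-fold and 53-fold, Rrm2 to 29.7-fold and 50.3-fold and Hells to 37.3-fold and 32.7-fold. The genes were proposed with the data in view, so these values only describe how the markers went together.

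Beyond the rule, genes were compared between S-phase and reference cells as summed UMIs of a group per 1000000 (CPM), and called at 2-fold on the log2 scale with 1 CPM added, among genes at 10 CPM or more over all kept cells of the day. On day 4, 444 of 7892 genes (5.63%) were at least 2-fold higher, 394 of them with an interval above 1, and 505 (6.4%) at least 2-fold lower, 178 of them with an interval below 1. On day 7, 453 of 8147 (5.56%) were higher, 428 with an interval above 1, and 524 (6.43%) lower, 261 with an interval below 1. Of 7638 genes measured on both days, 258 (3.38%) were higher on both and 87 (1.14%) lower on both. The median over all genes was -0.02 on the log2 scale on both days. Because the rule chose cells by replication genes, counts for replication and mitosis lists are descriptions set beside these percentages and nothing is read from them. Genes that pass 10 CPM only through dividing cells had to be higher there, and with the minimum taken over reference cells alone 292 genes (3.78%) and 287 (3.60%) were higher. Free RNA in the droplets, which adds a little of every abundant mRNA to each cell, was not measured.

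Replication machinery outside the rule was higher in the S-phase cells. Over all its 83 genes in the table, with no minimum, it made up 9423 CPM in S-phase cells and 3141 CPM in reference cells on day 4, a ratio of 3.0 (2.89 to 3.12), and 9106 and 3036 CPM on day 7, a ratio of 3.0 (2.89 to 3.11). Of the genes above the minimum, 40 of 57 on day 4 and 43 of 61 on day 7 were at least 2-fold higher, 35 of 56 on both days, and 0 were 2-fold lower. Their median log2 ratio was 1.78 and 1.65, and 1.24 and 1.27 with the minimum over reference cells alone. With barcodes added up the medians were 1.71 and 1.59, and without them 1.70 and 1.81.

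Origin licensing and helicase genes were in sum 5.14 (4.68 to 5.63) times the reference level on day 4 and 5.2 (4.76 to 5.69) times on day 7, with 9 of 12 and 13 of 16 measured genes at least 2-fold higher, and 7 of 10 and 9 of 12 with the minimum over reference cells alone. Cdc6, which loads the helicase, was at 78.3 (51.2 to 115) CPM in S-phase cells of day 4, 1.28 in reference cells and 2.34 in mitotic cells. On day 7 it was at 118 (87.3 to 157), 1.15 and 6.3 CPM, and the ratio of S-phase to reference cells was 61 (25.8 to 166) and 103 (41 to 330.1). Cdc6 was thus near the bottom of the scale in both other groups, and on day 4 it stood below the level minimum over all kept cells. Cdt1, its partner, was at 45.2 against 2.57 CPM on day 4 and 76.5 against 3.23 CPM on day 7, a ratio of 17.6 (7.92 to 39.3) and 23.7 (12.2 to 48.1), the latter 37.8 with barcodes added up and 36.7 without them. Mcm2, Mcm4 and Mcm7, the helicase subunits that the rule did not use, were 15.8, 13.8 and 14.3 times the reference level on day 4 and 11.7, 15.7 and 13.9 times on day 7. Gins2, of the GINS complex that completes the active helicase, had a ratio of 14 (9.83 to 19.8) and 12.5 (8.85 to 17.8). Not every licensing gene stood apart. Orc6 was 4.02 (3.09 to 5.19) and 4.16 (3.15 to 5.45) times the reference level, whereas Orc3 and Orc4, other subunits of the origin recognition complex, were at 1.54 (0.893 to 2.5) and 0.756 (0.372 to 1.38) times on day 4 and 0.943 (0.516 to 1.6) and 1.38 (0.901 to 2.03) times on day 7, with intervals that hold 1. Dbf4, the activator of the Cdc7 kinase that fires origins, was 5.38 (3.02 to 9.16) and 4.35 (2.59 to 7.09) times the reference level but 0.34 (0.199 to 0.55) and 0.462 (0.276 to 0.752) times the level of mitotic cells.

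Among polymerases and primase, 5 of 7 measured genes were at least 2-fold higher on day 4 and 6 of 8 on day 7, and 3 of 5 and 2 of 4 with the minimum over reference cells alone. Prim1, the catalytic subunit of primase, was at 145 (107 to 192) CPM in S-phase cells of day 4 against 6.97 in reference cells, and at 168 (130.3 to 213) against 4.85 on day 7. These levels were 20.7 (13.3 to 32.6) and 34.6 (20.9 to 59.4) times apart. Pola1, the large subunit of the polymerase that extends primers, had a ratio of 9.58 (5.31 to 16.9) and 11.1 (6.23 to 19.8). The small polymerase subunits stood closer to the reference, with Pole4 at 1.44 (1.08 to 1.89) and 2.03 (1.54 to 2.65) times and Pold4 at 0.775 (0.382 to 1.41) and 1.29 (0.714 to 2.17) times.

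Pcna, the sliding clamp that holds polymerases on DNA, was the best measured of these genes, with 222 UMIs in S-phase cells of day 4 and 312 on day 7. Its level was 669 (584 to 763) CPM on day 4 against 74.9 in reference and 133 in mitotic cells, and 769.7 (687 to 860.0) CPM on day 7 against 81.3 and 187. S-phase cells were the highest of the 3 groups on both days, with a ratio to reference cells of 8.93 (7.55 to 10.5) and 9.47 (8.1 to 11.1). 2810417H13Rik, the older symbol of the PCNA-associated factor Pclaf, was 49.2 (34.2 to 72.3) and 99.9 (60.5 to 176) times the reference level, Rpa2, of the protein that coats single strands, 21.5 (14.1 to 32.9) and 15.8 (10.4 to 24.2) times, and Tipin, a fork protection factor, 5.35 (4.03 to 7.02) and 5.99 (4.52 to 7.89) times. Over the clamp, loader and strand maturation list, 17 of 20 and 14 of 19 genes were at least 2-fold higher, and 11 of 14 and 10 of 15 with the minimum over reference cells alone. Top1, which relaxes supercoils ahead of forks and also of transcription, was close to the reference at 1.18 (0.948 to 1.44) and 0.966 (0.78 to 1.19) times.

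Deoxynucleotide supply split by gene. Tk1, thymidine kinase, was 34.8 (21.2 to 58.4) and 27.1 (14.5 to 53) times the reference level, Dut, which clears dUTP, 6.54 (4.67 to 9.06) and 7.25 (5.32 to 9.83) times, and Tyms, thymidylate synthase, 4.53 (3.44 to 5.9) and 3.75 (2.87 to 4.87) times. Rrm1, the large subunit of ribonucleotide reductase whose partner Rrm2 is in the rule, was 3.22 (2.44 to 4.19) and 4.31 (3.42 to 5.41) times the reference level. Paics, of purine synthesis, was at 2.21 (1.87 to 2.59) and 1.8 (1.49 to 2.15) times, Nme1, a nucleoside diphosphate kinase, at 1.27 (1.1 to 1.47) and 1.07 (0.932 to 1.22) times and Cmpk1, which phosphorylates CMP and UMP, at 0.999 (0.71 to 1.37) and 1.18 (0.896 to 1.54) times. In all, 9 of 18 genes were at least 2-fold higher on day 4 and 10 of 18 on day 7, and 7 and 8 of 16 with the minimum over reference cells alone.

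**Figure D2:**
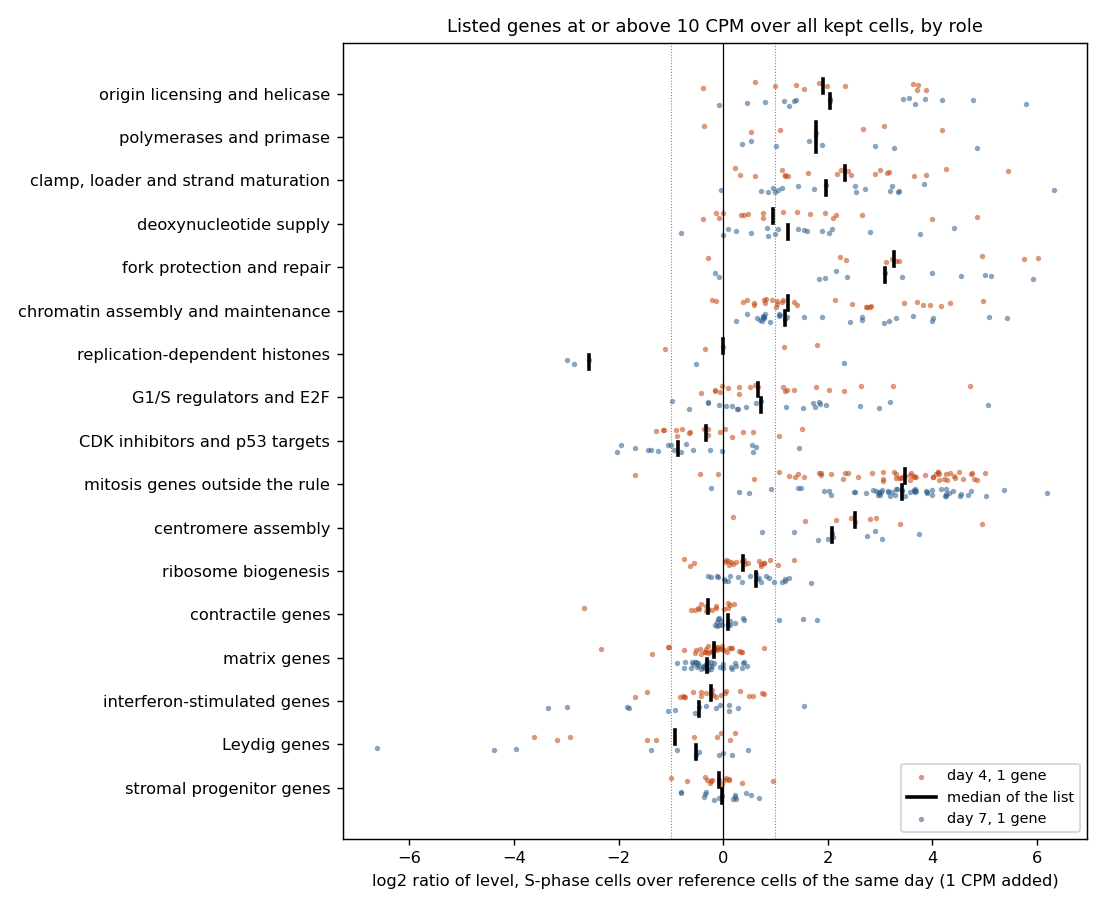
Each point is 1 gene at 10 CPM or more over all kept cells, with its log2 ratio of level in S-phase over reference cells (1 CPM added) on the x axis and its list on the y axis, orange for day 4 and blue for day 7. Black bars are list medians and dotted lines 2-fold. Points far to the left or right include genes with 0 UMIs in a group, whose place depends on the 1 CPM added. They also include genes with UMIs in both groups, such as 2810417H13Rik, the highest on day 7 (6.32).

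Fork protection and repair genes were in sum 6.35 (5.67 to 7.1) times the reference level on day 4 and 5.45 (4.92 to 6.04) times on day 7, and 9 of 10 and 11 of 13 measured genes were at least 2-fold higher, with a median log2 ratio of 3.27 and 3.09. Most of these genes passed the minimum through cells other than the reference cells. Over reference cells alone 2 and 5 genes passed, of which 1 and 3 were at least 2-fold higher, and the median was 0.97 and 1.94. Uhrf1, which reads hemimethylated DNA behind the fork, had a ratio of 41 (22.5 to 78.5) and 43.6 (22.9 to 90.1). Brca1 had 14 UMIs in S-phase cells of day 4 and 0 in reference cells, at least 76.6-fold higher against a floor of 3 counts over the group. That bound leaves out the counting error of the 14 UMIs, and the exact interval of the Brca1 ratio began at 54.5, or at 49.4 with barcodes added up and 30.5 without them. Usp1, which removes ubiquitin from PCNA, was at 4.77 (3.66 to 6.15) and 4.53 (3.54 to 5.76) times, and Tonsl, a reader of new histones, at 0.816 (0.528 to 1.21) and 0.947 (0.692 to 1.27) times, near the reference on both days.

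Chromatin assembly and maintenance genes were 2.27 (2.17 to 2.38) and 2.54 (2.44 to 2.65) times the reference level in sum, and 20 of 30 and 18 of 29 were at least 2-fold higher, or 14 and 13 of 24 with the minimum over reference cells alone. Nasp, a histone chaperone, was 5.6 (4.56 to 6.84) and 6.39 (5.26 to 7.73) times the reference level, Hat1, which acetylates new histone H4, 14 (9.95 to 19.5) and 8.78 (6.29 to 12.2) times, and Dnmt1, which copies DNA methylation, 6.9 (5.31 to 8.9) and 6.44 (4.89 to 8.45) times. Ezh2, the methyltransferase of Polycomb complex PRC2, was 7.29 (5.59 to 9.43) and 12.8 (9.82 to 16.8) times the reference level. Slbp, which binds the stem-loop of histone mRNAs, gave 22 and 16 UMIs in S-phase cells and a ratio of 7.68 (4.41 to 13) and 3.98 (2.09 to 7.2). Hmgb2 was 19.3 (14 to 26.6) and 16.9 (12.2 to 23.4) times the reference level, while Hmgb1, a more general chromatin protein, was at 1.72 (1.49 to 1.98) and 1.71 (1.46 to 1.99) times and Rbbp7, a histone-binding subunit, at 0.913 (0.771 to 1.08) and 1.38 (1.19 to 1.58) times.

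Histone mRNAs were mixed. Drop-seq beads catch poly(A) tails, which replication-dependent histone mRNAs mostly lack, and 5 of 56 listed histone genes were above the level minimum. Their list as a whole was at 0.915 (0.725 to 1.14) times the reference level on day 4 and 0.236 (0.178 to 0.305) times on day 7. Hist1h2bc, an H2B gene, gave 30 of the 83 histone UMIs of S-phase cells and 1072 of the 1489 of reference cells on day 4, and 33 of 58 and 2105 of 2631 on day 7. It was at 90.4 (61 to 129) CPM against 197 on day 4 and 81.4 (56 to 114) against 486 on day 7, a ratio of 0.459 (0.308 to 0.66) and 0.167 (0.115 to 0.236). Without Hist1h2bc the list was at 2.09 (1.54 to 2.78) and 0.508 (0.326 to 0.758) times the reference level, higher on day 4 and lower on day 7. Hist1h1c, a linker histone gene, was at 1.0 (0.424 to 2.03) times on day 4, from 8 UMIs, and at 0.125 (0.0256 to 0.369) times on day 7, from 3 (0.118 with barcodes added up and 0.061 without them). Hist1h1e, another linker histone gene, went the other way, 3.71 (1.92 to 6.7) and 6.01 (2.34 to 14.4) times. The 51 histone genes below the minimum gave 20 UMIs in S-phase cells of day 4, 4.26 (2.47 to 7.05) times the reference level, and 8 UMIs on day 7, 1.12 (0.470 to 2.33) times.

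**Figure D3:**
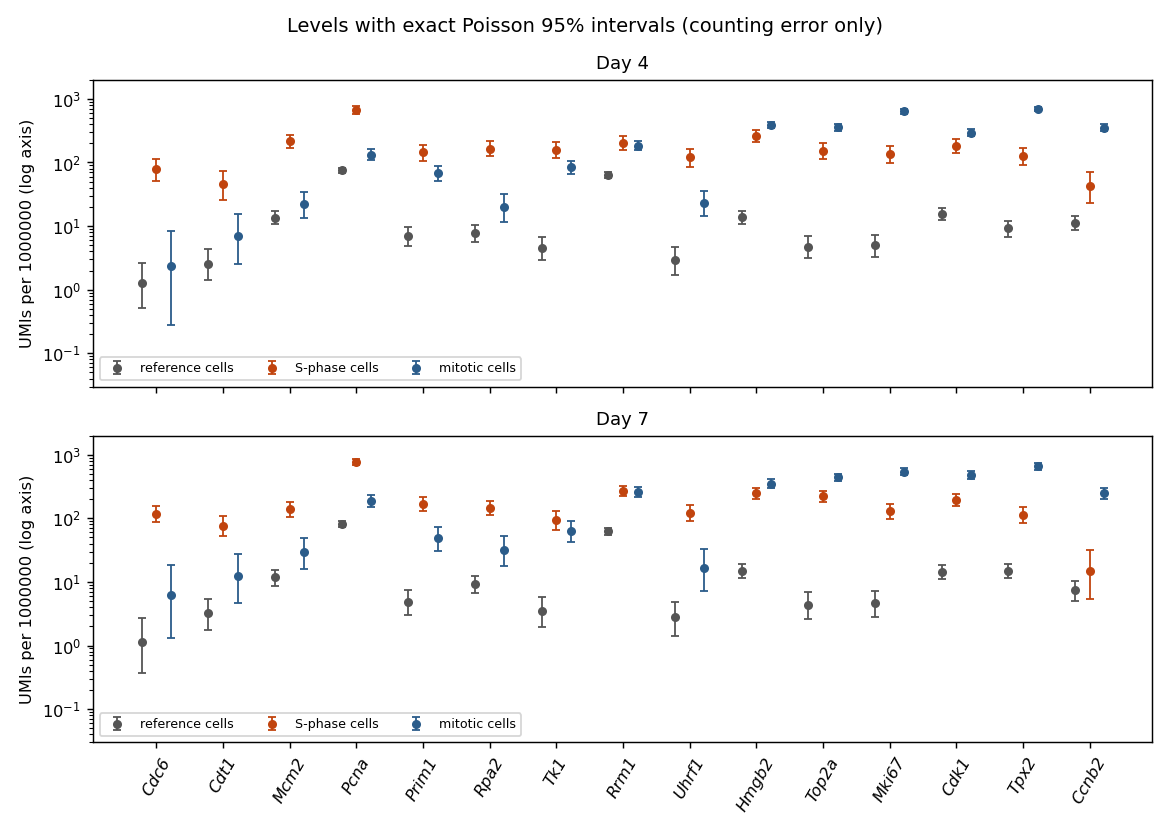
Levels of 15 genes in UMIs per 1000000 (log axis) in reference, S-phase and mitotic cells of day 4 (top) and day 7 (bottom), with exact Poisson 95% intervals that cover counting error only. From Cdc6 to Uhrf1 the S-phase cells are the highest of the 3 groups, with intervals that overlap those of mitotic cells at Rrm1 and, on day 7, at Tk1, and from Hmgb2 to Ccnb2 they lie between reference and mitotic cells, with intervals that overlap on day 7 with mitotic cells at Hmgb2 and with reference cells at Ccnb2.

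Regulators of the G1 to S step were mixed, with 10 of 21 measured genes at least 2-fold higher on day 4 and 11 of 23 on day 7 (4 of 14 and 4 of 16 with the minimum over reference cells alone) and summed ratios of 1.55 (1.43 to 1.67) and 1.2 (1.12 to 1.29). Ccne1, the partner of the rule gene Ccne2, was at 24.1 (10.4 to 47.5) CPM in S-phase cells of day 4 and 8.81 in reference cells, and at 76.5 (52 to 109) and 8.77 CPM on day 7, 2.74 (1.12 to 5.83) and 8.72 (5.24 to 14.4) times. Ccna2, the cyclin of S and G2, was 42 (18.7 to 103) and 57 (23.5 to 167) times the reference level and 0.387 (0.238 to 0.602) and 0.365 (0.237 to 0.547) times that of mitotic cells. From 9 and 6 reference UMIs, the ratio of Ccna2 to the reference was 59.6 and 91.6 with barcodes added up and 77.2 and 110.1 without them. E2f1, the activator E2F, was 5.37 (2.91 to 9.43) and 3.77 (2.26 to 6.08) times the reference level, though its log2 ratio of day 4 was -0.25 after thinning to 1500 UMIs. The cyclins that act earlier in G1 did not stand apart in the same way. Ccnd1 was at 1.23 (0.969 to 1.54) and 0.948 (0.775 to 1.15) times, and Ccnd2 at 0.90 (0.764 to 1.05) times on day 4 and 0.635 (0.559 to 0.72) times on day 7.

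Inhibitors of cyclin-dependent kinases and targets of p53 were lower in sum, at 0.687 (0.614 to 0.768) times the reference level on day 4 and 0.508 (0.458 to 0.561) times on day 7. The median log2 ratio of the list was -0.32 and -0.87, with 6 and 4 of 18 measured genes above 0. An interval below 1 was found for 3 and 9 of them, and above 1 for 2 on each day. Of 18 measured genes, 3 were at least 2-fold lower on day 4 (2 with an interval below 1) and 7 on day 7 (6), and 3 of 17 on both days, against 2 and 1 that were 2-fold higher. Cdkn1a, which encodes p21, was at 136 (98.9 to 181) CPM in S-phase, 297 in reference and 256 in mitotic cells on day 4, and at 146 (111 to 188), 594 and 361 CPM on day 7. S-phase cells were the lowest of the 3 groups on both days, at 0.456 (0.331 to 0.613) and 0.245 (0.186 to 0.317) times the reference level and 0.529 (0.375 to 0.732) and 0.403 (0.295 to 0.545) times the mitotic level. Cdkn1a was at 0.492 (0.361 to 0.655) and 0.272 (0.21 to 0.348) times with barcodes added up, and at 0.324 (0.207 to 0.485) and 0.234 (0.166 to 0.319) times without them. With each cell weighted equally the log2 ratio of Cdkn1a on day 4 was -0.35 in place of -1.13, no longer at 2-fold. Cdkn2b, which encodes p15, was at 133 (96.3 to 178) against 323 CPM and 76.5 (52 to 109) against 299 CPM, 0.411 (0.297 to 0.554) and 0.256 (0.173 to 0.365) times. Ccng1, a p53 target, was at 0.578 (0.412 to 0.789) and 0.483 (0.368 to 0.623) times. Cdkn2c, which encodes p18, was at 2.98 (1.47 to 5.57) and 2.86 (1.5 to 5.13) times, on day 7 at 1.94 with barcodes added up and 1.91 without them, and its log2 ratio of day 4 was -0.59 after thinning to 1500 UMIs. Trp53 itself was at 1.3 (0.945 to 1.75) and 1.5 (1.15 to 1.93) times.

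Mitosis genes outside the rule were far above reference cells in the S-phase cells and far below mitotic cells. All 61 genes in the table summed to 3669 CPM in S-phase, 562 in reference and 11230.0 in mitotic cells on day 4, and to 3663, 573 and 11977 CPM on day 7. That was 6.53 (6.11 to 6.98) and 6.39 (5.99 to 6.82) times the reference level and 0.327 and 0.306 times the mitotic level. Mitotic cells were picked for a high mitosis sum and S-phase cells for a low one, so nothing is read from this direction. Of 55 measured genes on each day, 51 were at least 2-fold higher than in reference cells, 50 of 54 on both days. Most of them passed the minimum through cells other than the reference cells, and of the 9 that reached it over reference cells alone 7 were at least 2-fold higher on each day. The reference cells were picked for having no UMI of mitosis genes either. Against all other cells of the day the median log2 ratio of the list was 0.20 and 0.22, in place of 3.48 and 3.42, while that of the replication machinery was 1.35 and 1.14.

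Against mitotic cells, 427 of 7892 genes (5.41%) were at least 2-fold higher in S-phase cells of day 4 and 577 (7.31%) lower, and 551 of 8147 (6.76%) higher and 611 (7.5%) lower on day 7. S-phase and mitotic cells were chosen by replication and mitosis genes, so the values of the replication machinery and mitosis lists are descriptions. The replication machinery had 22 of 57 and 26 of 61 genes at least 2-fold above mitotic cells and 1 on each day below, Dbf4. In sum it was 1.79 (1.71 to 1.87) and 1.62 (1.54 to 1.7) times the mitotic level. The mitosis list had 37 and 38 of 55 genes at least 2-fold below mitotic cells, and 2 and 1 above. Ncapd3, a condensin subunit, was above on both days, at 4.29 (2.32 to 8.18) and 3.52 (1.53 to 9.07) times.

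The order of the 3 groups differed between mitosis genes. Top2a, which untangles sister chromatids, was at 154 (114 to 202) CPM in S-phase cells of day 4 and 357 in mitotic cells, and at 222 (179 to 273) and 441 on day 7, 0.431 (0.314 to 0.581) and 0.503 (0.389 to 0.647) times. Cdk1, the mitotic kinase, was at 0.621 (0.461 to 0.824) and 0.407 (0.311 to 0.528) times the mitotic level, and Smc2, the core of condensin, at 0.759 (0.609 to 0.939) and 0.587 (0.462 to 0.743) times. Mki67, the proliferation antigen of mitotic chromosomes, was further below at 0.213 (0.154 to 0.289) and 0.243 (0.177 to 0.328) times, and Tpx2, a spindle assembly factor, at 0.181 (0.129 to 0.248) and 0.174 (0.125 to 0.237) times. Ccnb2, a mitotic cyclin, was at 0.119 (0.0643 to 0.203) and 0.0602 (0.0217 to 0.135) times that level and, on day 7, at 2.0 (0.685 to 4.86) times the reference level, which was 0.981 with barcodes added up and 0.617 without them. Kif20a, a kinesin of the last step of division, gave 0 and 2 UMIs in S-phase cells against 178 and 210.0 CPM in mitotic cells. Centromere assembly genes lay closer to the mitotic level, at 0.972 (0.839 to 1.12) and 0.746 (0.632 to 0.879) times in sum, and Cenph, of the inner kinetochore, stood at 1.69 (1.09 to 2.58) times on day 4 and 1.34 (0.716 to 2.54) on day 7. Hjurp, the chaperone of centromeric histone CENP-A, was at 1.71 (1.21 to 2.4) and 0.952 (0.634 to 1.42) times.

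**Figure D4:**
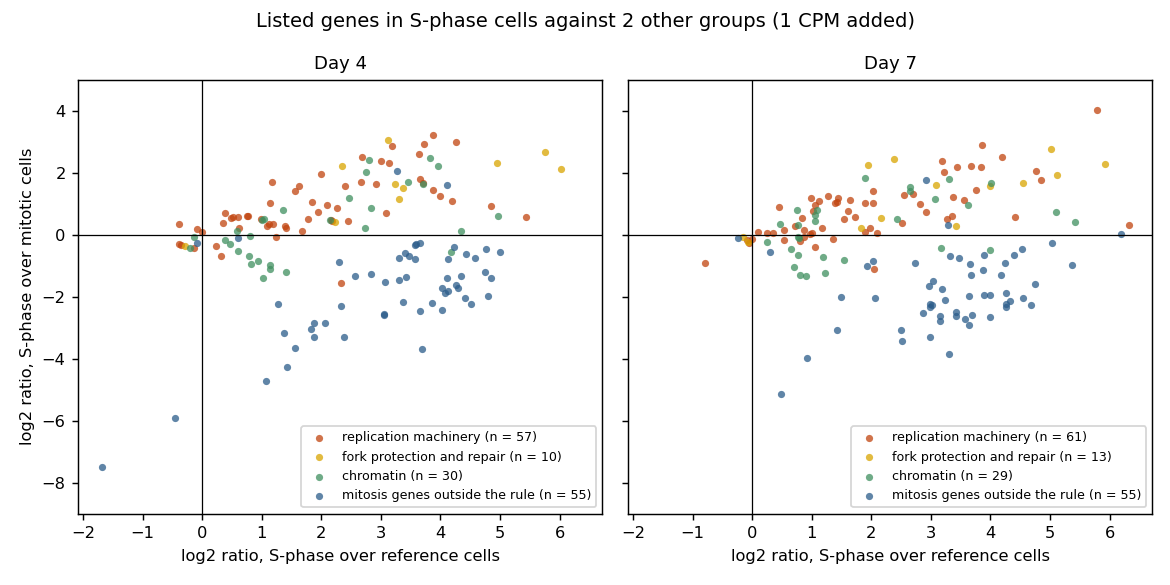
Each point is 1 listed gene at 10 CPM or more, with the log2 ratio of S-phase over reference cells on the x axis and of S-phase over mitotic cells on the y axis (1 CPM added), day 4 left and day 7 right. Most replication and repair genes sit near or above the horizontal line and most mitosis genes to the right and below it, where the summed levels were 1.79 and 1.62 times the mitotic level for the machinery and 0.327 and 0.306 times for mitosis genes.

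Members were also split by their UMIs of the rule's mitosis genes. Mitosis genes go together, so a higher level of the others is a description and nothing is read from it. Median depth was 3361 UMIs with 0 mitosis UMIs, 4218 with 1 and 4715 with 2 on day 4. On day 7 it was 3621, 4078 and 3541 UMIs. The 35 (day 4) and 46 (day 7) members with 1 or 2 UMIs of the rule's mitosis genes had 1.54 (1.36 to 1.74) and 1.60 (1.43 to 1.79) times the level of the other mitosis genes of the 39 and 42 members with none. Replication machinery was at 1.03 (0.955 to 1.10) and 1.19 (1.11 to 1.27) times between the same members. Cdc6 was at 0.348 (0.131 to 0.841) times on day 4 and 0.926 (0.504 to 1.72) times on day 7. Members with 8 or more replication UMIs, against those with 4 to 7, had 1.15 (1.07 to 1.24) and 1.23 (1.15 to 1.31) times the level of the machinery outside the rule. That split used the sum that chose the members, so nothing is read from it either. These members differed in depth too, with a median of 6294.5 and 6138 UMIs against 2538 and 2741.

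Ribosome biogenesis, which growing cells turn up, was slightly higher, at 1.39 (1.33 to 1.45) and 1.58 (1.51 to 1.64) times the reference level in sum, with 2 and 5 of 23 genes at least 2-fold higher. Nolc1, a nucleolar protein, was at 1.72 (1.42 to 2.06) and 2.19 (1.81 to 2.64) times and Npm1, nucleophosmin, at 1.34 (1.23 to 1.46) and 1.54 (1.43 to 1.67) times. Tcof1, which serves rDNA transcription, was at 2.61 (1.74 to 3.81) and 3.26 (2.27 to 4.6) times.

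The lineage genes of the culture were present in the S-phase cells. Vim, the mesenchymal intermediate filament, was at 1.08 (1.02 to 1.16) and 1.18 (1.12 to 1.24) times the reference level. Ly6a, which encodes the sorted Sca1 antigen, was at 578 (499 to 666) CPM in S-phase cells of day 4 and 534 in reference cells, and at 61.7 (39.9 to 91) and 79 CPM on day 7, low in both groups on day 7. Pdgfra, a receptor of the added PDGF, was at 1.29 (0.918 to 1.78) and 1.63 (1.15 to 2.26) times, and Tcf21, the progenitor marker, at 0.483 (0.155 to 1.15) and 0.771 (0.302 to 1.65) times from 5 and 7 UMIs. With barcodes added up Tcf21 was at 0.854 and 1.23 times and without them at 0.354 and 0.953 times, and over all alternatives its log2 ratio on day 7 ran from -4.55 to 0.42, so that these UMIs give no direction. Of 15 measured stromal progenitor genes, 0 were at least 2-fold higher on either day and 1 and 0 lower.

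Some contractile genes changed side of the reference level between the days, while the list as a whole lay below it on day 4 and near it on day 7. In sum they were 0.807 (0.786 to 0.829) times the reference level on day 4 and 1.06 (1.04 to 1.09) times on day 7, and 1.00 (0.974 to 1.03) times on day 7 with barcodes added up. Against mitotic cells the sum was 1.16 (1.12 to 1.19) and 1.24 (1.2 to 1.28) times. On day 7 the median log2 ratio of contractile genes was 0.09, and -0.09 with barcodes added up. Acta2, smooth muscle actin, was at 2353 (2191 to 2524) CPM in S-phase and 3289.5 in reference cells of day 4, and at 3567 (3386 to 3756) and 2743 CPM on day 7. S-phase cells were thus the lower group on day 4 and the higher on day 7, at 0.715 (0.665 to 0.768) and 1.3 (1.23 to 1.37) times. Myl9, the smooth muscle light chain, was at 0.692 (0.58 to 0.819) and 1.18 (1.02 to 1.35) times. Cnn1, calponin, had 1 UMI in S-phase cells of day 4, a ratio of 0.123 (0.0031 to 0.70), and 21 on day 7, a ratio of 2.99 (1.75 to 4.91). Tagln, another smooth muscle gene, was at 1.09 (0.985 to 1.21) and 1.09 (0.992 to 1.2) times. Of 18 measured genes, 0 were at least 2-fold higher and 1 lower on day 4, and 3 higher and 0 lower on day 7, with 0 of 18 on both days.

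**Figure D5:**
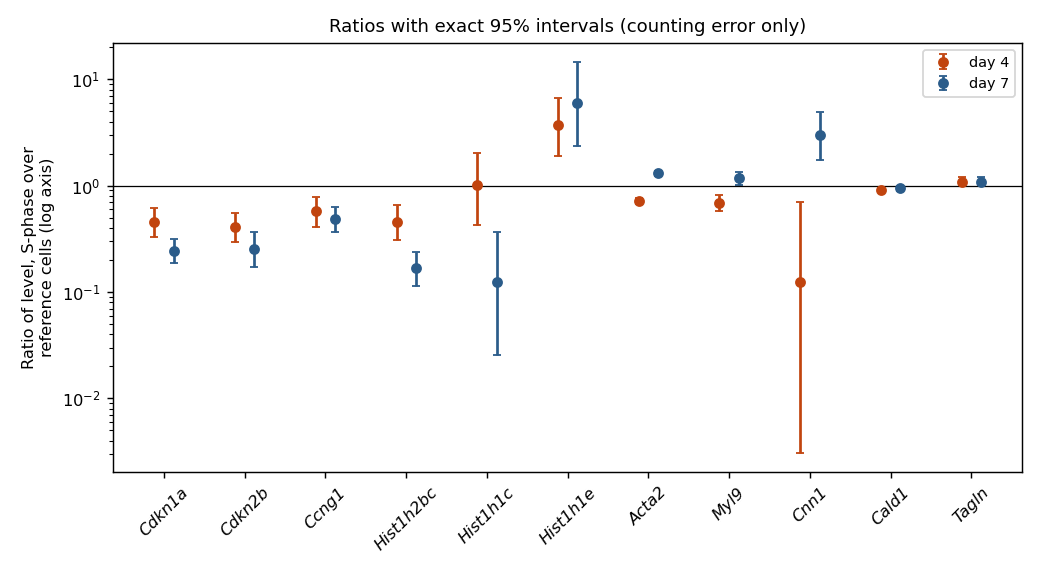
Ratio of the level in S-phase over reference cells (log axis) for 11 genes on day 4 and day 7, with exact 95% intervals for counting error only. Cdkn1a, Cdkn2b, Ccng1 and Hist1h2bc lie below 1 on both days, whereas Acta2, Myl9 and Cnn1 lie below 1 on day 4 and above it on day 7.

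Matrix genes were at 0.909 (0.893 to 0.924) and 0.77 (0.758 to 0.782) times the reference level in sum, with 0 of 36 at least 2-fold higher on either day and 4 and 0 lower. Sparc, a collagen-binding matrix protein, was at 0.878 (0.846 to 0.911) and 0.764 (0.74 to 0.789) times, and Ctgf, a matricellular target of YAP signalling, at 0.686 (0.634 to 0.742) and 0.545 (0.488 to 0.606) times. Leydig genes were lower than in reference cells in sum, 0.652 (0.583 to 0.727) and 0.607 (0.55 to 0.668) times. Against mitotic cells, the Leydig sum was 1.08 (0.952 to 1.23) and 1.16 (1.01 to 1.32) times. The matrix sum was 1.18 (1.15 to 1.2) and 1.02 (1.00 to 1.04) times the mitotic level. Neither sum was thus lower in S-phase cells than in mitotic cells. Cyp11a1, the first enzyme of steroid synthesis, had 0 UMIs in S-phase cells on both days. Against 97.4 CPM in reference cells of day 7 that was at least 13.2-fold lower, with a floor of 3 counts over the group, but reference cells held 62 of their 422 Cyp11a1 UMIs once barcodes with shared bases were left out. On day 4 the log2 ratio of Cyp11a1 ran from -6.35 to 2.83 over all alternatives, so that day 4 gives no direction. Star, which moves cholesterol into mitochondria, was at 0.918 (0.705 to 1.18) times on day 4 and 0.384 (0.296 to 0.49) times on day 7. Aldh1a1, a retinaldehyde dehydrogenase, was at 0.408 (0.324 to 0.508) and 0.731 (0.618 to 0.858) times.

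Other programs of the culture were close to the reference or below it. Interferon-stimulated genes were at 0.945 (0.876 to 1.02) and 0.784 (0.697 to 0.879) times in sum, with 2 of 22 and 5 of 15 genes at least 2-fold lower and 0 and 1 higher. Of those that were lower, 1 on each day had an interval below 1. Targets of hedgehog, FGF, Wnt and Notch signalling, the pathways the media act on, were at 1.01 (0.882 to 1.15) and 0.983 (0.848 to 1.14) times, with 3 of 15 and 1 of 14 at least 2-fold lower, 0 of these with an interval below 1. Immediate-early and stress genes were at 0.767 (0.73 to 0.805) and 0.576 (0.55 to 0.602) times in sum, with 3 and 2 of 14 at least 2-fold lower. Their median log2 ratio was -0.28 on day 4 and 0.11 on day 7, with 5 and 8 of 14 genes above 0. The lower sum of day 7 was thus not a trait of most of these genes. Against mitotic cells the sum was 1.25 (1.18 to 1.33) and 1.34 (1.26 to 1.43) times. Ddit3, a transcription factor of the stress response, was at 0.325 (0.13 to 0.676) and 0.356 (0.206 to 0.576) times, and the nuclear RNA Malat1 at 0.749 (0.71 to 0.79) and 0.535 (0.509 to 0.562) times, while Egr1, an immediate-early factor, was at 1.13 (0.847 to 1.49) and 1.28 (0.919 to 1.74) times.

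Of the markers of other cell types, those of macrophages and germ cells were scarce in S-phase cells. The 12 macrophage markers gave 4 UMIs in S-phase cells of day 4 and 1 on day 7, and Lyz2 was at 0 on both days. Adgre1 and C1qa were at 0 too, but also in reference and mitotic cells of both days, so that they tell nothing here. The 10 endothelial markers gave 22 and 47 UMIs, 0.749 (0.465 to 1.15) and 0.903 (0.656 to 1.22) times the reference level. Such a UMI was found in 24.3% and 33.0% of S-phase cells and in 22.2% and 32.5% of reference cells. Pecam1 and Vwf were at 0 in S-phase cells of day 4, Vwf also in mitotic cells of that day. Germ cell markers gave 11 UMIs on each day, 0.134 (0.0667 to 0.24) and 1.13 (0.547 to 2.11) times the reference level, and 725 of the 1349 such UMIs of reference cells of day 4 lay in 1 cell. On day 4 germ cell markers were at 0.0334 times with barcodes added up and 0.0356 times without them. Macrophage markers, with so few UMIs, were at 1.88 and 0.103 times the reference level, at 1.35 and 0.213 with barcodes added up and at 0.671 and 0.291 without them. Sertoli markers were at 0.796 (0.699 to 0.902) and 0.746 (0.672 to 0.825) times, nearly all of it Ctsl, a protease gene of many cell types. The part of these cells in the ratios above was not tested.

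Outside all lists, 4316 genes at 30 CPM or more on both days were ranked by the smaller of the 2 log2 ratios. At the top were Dnajc9, a histone cochaperone (9.82 (7.03 to 13.6) and 9.09 (6.57 to 12.5) times the reference level), Fam111a, a protease that binds PCNA (6.6 and 7.49), Diap3, a formin (6.09 and 9.35), Stmn1, which destabilises microtubules (4.53 and 6.41), and Eri1, an exonuclease that trims histone mRNAs (4.44 and 4.08). Casp8ap2, which takes part in histone gene expression, followed with 4.58 (3.16 to 6.51) and 3.71 (2.55 to 5.31) times. Nup85, Whsc1, Tmpo and Haus3 made up the rest of the 10. Of the 10, 7 were below 30 CPM in reference cells on both days and passed the minimum through other cells. Diap3 and Stmn1 were higher in mitotic cells, with S-phase cells at 0.279 (0.188 to 0.40) and 0.364 (0.242 to 0.536) times the mitotic level for Diap3 and 0.396 (0.218 to 0.674) and 0.358 (0.199 to 0.616) times for Stmn1. Against all other cells of the day their log2 ratios were 0.26 and 0.49 for Diap3 and 0.30 and 0.57 for Stmn1. Among the 10 at the bottom were Lpin1, Zfp191, Cx3cl1, Icam1, Spg20, Gas6, Folr1, Kdm5b and Slc26a2. Lpin1, a phosphatidate phosphatase of lipid synthesis, was at 0.254 (0.0519 to 0.753) and 0.272 (0.0987 to 0.60) times, and Icam1, an adhesion molecule, at 0.415 (0.165 to 0.866) and 0.295 (0.107 to 0.653) times (0.519 on day 7 with barcodes added up). Gas6, the growth arrest-specific ligand of TAM receptors, was at 0.431 (0.326 to 0.56) and 0.473 (0.385 to 0.577) times.

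Between the days, the level of the replication machinery differed little within the S-phase cells, with a median log2 ratio of day 7 over day 4 of -0.07, against 0.04 in reference cells. Members of both days met the same replication minimums and reference cells had no UMI of the rule genes, so nothing is read from this. The list of kinase inhibitors and p53 targets had a median of 0.09 in S-phase and 0.56 in reference cells, and contractile genes of -0.09 and -0.47. Interferon-stimulated genes were lower on day 7 in both groups, with medians of -1.44 in S-phase and -1.64 in reference cells. For the inhibitor and contractile lists the days therefore differed more in reference cells than in S-phase cells. Acta2 differed in both groups, higher on day 7 in S-phase cells and lower in reference cells. With 1 library per day these differences were not tested.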

How the data were processed

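Drop-seq was done on 1 library each of days 4, 7 and 14, and the authors deposited UMI counts per gene and cell, whole numbers with no normalization, per day and as a merged table of kept cells. In the submitters' processing notes Picard 2.6.0, SAMtools 1.2, STAR 2.5.2a and the build GRCm38 are named. Kept cells are those of the merged table, which the authors filtered at 500 detected genes and 10% mitochondrial UMIs, and 0 of its counts differed from the tables per day. The 495 columns of the merged table that belong to no sample given here were not used.

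Counts were summed over the cells of a group and day and given as CPM, UMIs per 1000000 of the group. A ratio of 2 groups is a ratio of CPM with an exact conditional Poisson interval, and a log2 ratio has 1 CPM added. Calls are at 2-fold among genes at 10 CPM or more over all kept cells of the day. Cells of 1 library are not replicates, so no p-value is given. The members, the 25 gene lists and the genes named in the text were chosen with earlier results of these data known. Every member of a list could be named, beginning with the best measured and those with the largest and smallest ratio, and the other named members were picked after their values were seen. Outside the lists the 10 highest and 10 lowest genes on both days at 30 CPM or more were named, and some genes that these choices took in are not reported here. Of the listed names, Rnf43, Fshr and Knl1 were not found in the table, and Pclaf is there as 2810417H13Rik. No doublets were removed, and the authors' notes used here state no removal. Python 3.11.15, numpy 2.4.6, scipy 1.17.1, pandas 2.3.3, matplotlib 3.10.9 and scanpy 1.11.5 (Scrublet, for an alternative only) were used, and the scripts were tested on simulated data. Alternatives to the cell filter, rule, reference, weighting, depth, added CPM, level minimum and doublets were tried. Those on barcodes with shared bases and on a level minimum over reference cells alone were chosen after seeing the data.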

Additional observations from a re-analysis of the deposited data

Results flagged for a closer look

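Acta2, Myl9, Cnn1 and the summed level of the contractile list stood on opposite sides of the reference level on the 2 days, the sum on day 7 only as deposited and without barcodes that share bases, since with these added up it was at 1.00 times. The difference between days was not tested, since each day was 1 library. The log2 ratio of S-phase over reference cells was higher on day 7 than on day 4 by 0.86 for Acta2, by 0.77 for Myl9 and by 4.19 for Cnn1, where day 4 rests on 1 UMI. For the summed level of the contractile list the log2 difference was 0.40. That sum was 17119.5 CPM on day 4 and 16543.5 on day 7 in S-phase cells, and 21204 and 15567 CPM in reference cells. Its change of side thus went with the lower level of reference cells on day 7.

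On day 14, which entered no comparison of genes, 8 of 973 cells met the rule of the S-phase cells.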

How the results depend on the processing

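No paired analysis was possible because each day was 1 library and no test was made. Of 210 values for the shares, the counts of called genes and the medians of 4 lists (replication machinery, mitosis, contractile and matrix genes), 174 stayed within their limits under the alternatives and 36 moved. The causes were not tested. In the order day 4 and day 7, the share of S-phase cells was 1.24% and 2.03% under a stricter rule (6 UMIs and 12 per 10000), 3.46% and 5.57% under a looser rule (3 UMIs and 6 per 10000), 1.31% and 1.93% with 0 mitosis UMIs and 3.23% and 6.27% after thinning to 3000 UMIs. Genes at least 2-fold higher numbered 252 and 243 with all other cells as reference, 755 and 744 after thinning to 1500 UMIs, 264 and 271 with 10 CPM added, 250 and 266 at a minimum of 20 CPM and 292 and 287 with the minimum over reference cells alone. Genes at least 2-fold lower numbered 1268 and 1158 after thinning, 135 and 150 with 10 CPM added, 841 and 868 at a minimum of 5 CPM, 225 and 241 at 20 CPM, 1045 and 996 with 0 mitosis UMIs and, on day 4, 784 under the stricter rule. The median log2 ratio of the mitosis genes was 0.20 and 0.22 with all other cells as reference, 1.96 and 1.91 with 10 CPM added and 2.29 and 2.73 with the minimum over reference cells alone, where that of the replication machinery was 1.24 on day 4. Among named genes, with all other cells as reference Tpx2 came to -0.0201 and -0.0675 and Ccnb2 to -0.65 on day 4. After thinning to 1500 UMIs, Cdkn2c came to -0.59 and E2f1 to -0.25 on day 4, and with 0 mitosis UMIs Pdgfra came to -0.83 on day 7, all turned in direction. Genes whose interval held 1 before the alternatives were not counted as turned. The day 7 median of contractile genes, 0.09, was -0.09 with barcodes added up. Leaving out the 6% of cells with the highest Scrublet scores took out 6 of 74 and 14 of 88 S-phase cells.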
